A study of Mus musculus with 4 samples.

Results

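The MMP, ADAM, ADAMTS and TIMP genes encode the metalloproteases that cut extracellular matrix and cell surface proteins, together with their tissue inhibitors. Members were chosen by symbol: every protein-coding gene whose GENCODE symbol begins with Mmp, Adam, Adamts or Timp followed directly by a digit. That gave 78 genes of the 50600 in the tables, made up of 22 MMP, 33 ADAM, 19 ADAMTS and 4 TIMP genes. No count or TPM entered the choice of a gene. The family itself was taken up with earlier results of these libraries known, among them the low count of Mmp7 in replicate 2. What follows on replicate 2 is therefore a description of that library.

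The cells were mouse T helper 17 (Th17) cells, the CD4 T cells that make interleukin 17. They were primary cells of C57BL/6NJ mice, and the labels point to a protocol for differentiating CD4 T cells. The file headers give a time of 72 hr for each library. The 4 libraries share 1 set of labels, which name no treatment, control, allele or agent and leave sex, age and stage unknown or not collected. The 4 biosamples share 1 donor identifier, so p-values measure only the spread between these samples, which may be technical. The assay is labelled total RNA-seq, while the linked library protocol is titled poly(A)+ RNA.

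Total counts ran from 33123029 to 37746767, so 3 counts, the limit used for a gene at 0, stood for 0.0795 to 0.0906 CPM, the count scaled to its library's total (counting error only). Replicate 2 stood apart from the rest: a chi-square of counts per degree of freedom was 44.6 to 49.4 for its pairs and 4.44 to 6.61 for the other pairs. The Th17 and CD4 T cell markers were all present, with Cd4 at 500.5 ± 16.2 TPM and Cd3e, a chain of the T cell receptor complex, at 122 ± 3.75 TPM (mean ± SD, n = 4). TPM divides each count by gene length and scales every library to the same total, so levels of different genes can be compared. The 8 markers summed to 6790, 2020, 6290 and 6070 TPM, most of it Il17f and Il17a, and Il17a fell from 2293 ± 217 TPM (n = 3) elsewhere to 505 TPM in replicate 2. Values are therefore given for each library, and means also without replicate 2 where it stood apart.

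MMPs are mostly secreted zinc proteases that cleave collagens, laminins and other matrix proteins, and leukocytes use some of them to cross tissue barriers. ADAMs are membrane proteases that release the outer part of surface proteins, a process called shedding; in T cells ADAM10 and ADAM17 are the best known of them. ADAMTS proteases are secreted and act on proteoglycans, procollagens and von Willebrand factor. TIMPs bind the active site of many of these enzymes and block it.

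Of the 78 genes, 38 had at least 10 counts summed over the libraries and were tested, 16 had fewer and 24 had no count. Of the tested genes 18 lay above 1 TPM, 14 below it and 6 had no call (edgeR quasi-likelihood fit, adjusted by Benjamini-Hochberg over all genes). Among all 17337 genes tested 70.6% lay above and 16.4% below 1 TPM. The median level of the tested members was 0.12 on the log2 scale of TPM, against 3.41 for all genes tested. The other 40 members fell below the count minimum and are not in these shares. In bulk RNA a low level from every cell and a high level from few cells cannot be told apart.

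**Figure D1:**
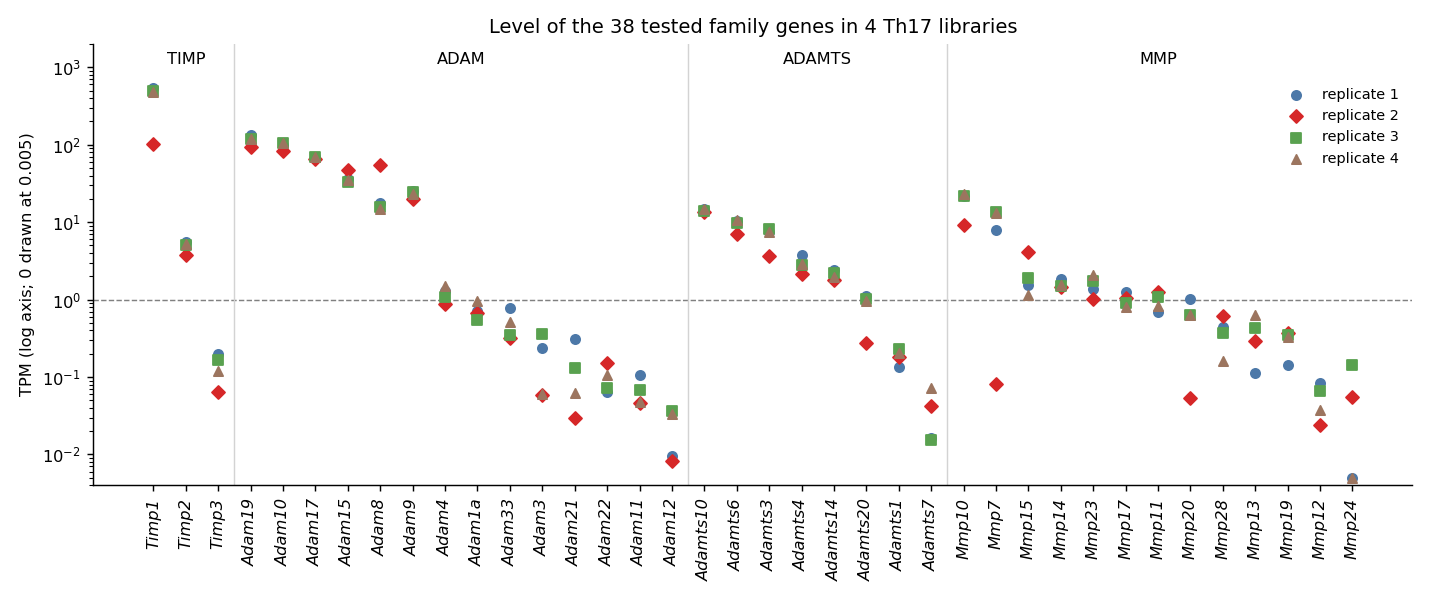
TPM (log axis) of each of the 38 tested genes in the 4 libraries, 1 symbol per library, grouped by family and ordered by mean; the dashed line marks 1 TPM, and values of 0 are drawn at the foot of the axis. Timp1 and 6 ADAM genes lie highest, and replicate 2 lies apart for Timp1, Adam8, Mmp10, Mmp7 and Mmp20.

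The inhibitor Timp1 was the most abundant gene of the whole set. Timp1 (ENSMUSG00000001131.11, mm10 chromosome X, bases 20870166 to 20874735) stood at 544, 102, 487 and 473 TPM in replicates 1 to 4. It was low in replicate 2 alone, and the other 3 libraries lay at 501 ± 37.4 TPM (SD, n = 3). Its log2 change in replicate 2 against the others was −2.24 ± 0.09 (SE), a level 4.71-fold lower (edgeR adjusted p = 1.46e-08). Timp1 is secreted and inhibits most soluble MMPs. It made up 96.3% to 99.0% of the summed TPM of the 4 TIMP genes.

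Timp2, which also takes part in activating pro-MMP2 at the cell surface, had 5.57, 3.81, 5.08 and 5.30 TPM. Replicate 2 was lowest, at a log2 change of −0.42 ± 0.17 that had no call (edgeR adjusted p = 0.0929). Timp3, the matrix-bound inhibitor that also blocks ADAM17, lay below 1 TPM with 16, 6, 14 and 11 counts. It shares 1733 exon bases with Syn3 on the opposite strand, a gene with at most 7 counts in a library. Timp4 had no count in any library. Thus 1 of the 4 inhibitors carried nearly all the transcript, and it was the 1 with a call in replicate 2.

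**Figure D2:**
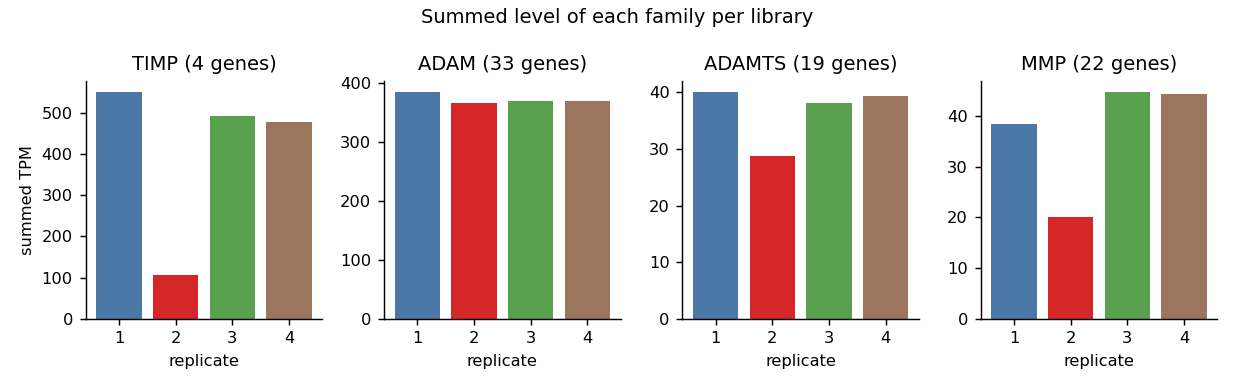
Summed TPM of the 4 TIMP, 33 ADAM, 19 ADAMTS and 22 MMP genes in each library, each panel with its own axis from 0. The ADAM sum lies between 365.5 and 384 TPM in every library, while the TIMP sum falls to 106 TPM in replicate 2.

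The ADAM sum was the steadiest of the 4 families, at 384, 365.5, 368.5 and 369 TPM. It included 9 genes of somatic tissues that keep a protease site, and 6 of these lay above 1 TPM. Adam19 (ENSMUSG00000011256.16, chromosome 11, bases 46055992 to 46147343), a protease that can cleave neuregulin, had 134, 93.5, 117 and 120 TPM. Replicate 2 was the lowest of the 4, with a log2 change of −0.34 ± 0.07 (edgeR adjusted p = 0.0032). Adam10 (ENSMUSG00000054693.14, chromosome 9, bases 70678997 to 70780229), the sheddase that opens Notch signalling, had 98.0, 83.0, 106 and 104 TPM. It too was lowest in replicate 2, by a small log2 change of −0.25 ± 0.05 (edgeR adjusted p = 0.0014).

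Adam17 (ENSMUSG00000052593.15, chromosome 12, bases 21323509 to 21373632), the enzyme that releases tumour necrosis factor, was the most even of these genes. It had 69.5, 64.5, 68.8 and 69.0 TPM, and its log2 change in replicate 2 of −0.04 ± 0.05 had no call. Adam10 exceeded Adam17 in every library, with ratios of 1.41, 1.29, 1.54 and 1.51. Adam19, Adam10 and Adam17 together made up 78.5%, 65.9%, 79.3% and 79.5% of the ADAM sum. In replicate 2, where the share was smaller, Adam19 and Adam10 were lower and Adam8 and Adam15 higher.

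Adam8 (ENSMUSG00000025473.16, chromosome 7, bases 139978932 to 139992562), a leukocyte protease that sheds adhesion molecules, had 17.65, 55.3, 15.8 and 14.8 TPM. It was high in replicate 2 only, the other 3 libraries lying at 16.1 ± 1.45 TPM. The log2 change was 1.84 ± 0.09, a level 3.59-fold higher (edgeR adjusted p = 3.32e-12). Adam8 lay below Adam9 in replicates 1, 3 and 4, with ratios of 0.701, 0.638 and 0.645, and above it in replicate 2, at 2.77. The ratio of Timp1 to Adam8 in TPM was 30.8, 30.8 and 32 in replicates 1, 3 and 4 and 1.84 in replicate 2. That ratio follows from the changes given for the lowered Timp1 and the raised Adam8, and inhibition was not tested.

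Adam15, a membrane protease with a disintegrin domain that binds integrins, had 36.0, 46.7, 33.0 and 34.7 TPM. Replicate 2 was highest, with a log2 change of 0.50 ± 0.06 (edgeR adjusted p = 3.26e-06). A non-coding antisense gene, 4731419I09Rik, shares 20.6% of the Adam15 exon length on the opposite strand and had at most 6 counts in a library. Adam9, a widely expressed sheddase, had 25.2, 19.95, 24.8 and 22.9 TPM and no call in replicate 2 (−0.22 ± 0.10). Adam9 was called lower when replicate 4 was left out (−0.27, edgeR adjusted p = 0.0356).

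The other 3 somatic ADAM genes with a protease site were low or silent. Adam33 had 41, 20, 20 and 31 counts and lay below 1 TPM. Adam12, known from muscle and placenta, had 1, 1, 4 and 4 counts. Adam28, described in lymphocytes, had no count in any library. Of the somatic ADAMs without a protease site, which act as adhesion or synaptic ligands, Adam22 had 9, 25, 11 and 17 counts. Adam11 had 6, 3, 4 and 3 counts, while Adam23 had none.

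The remaining 21 ADAM genes are best known from the male germline, where several act in sperm maturation and egg binding. Of these 13 had no count, 4 had fewer than 10 and 4 were tested. Adam4 reached 1.29, 0.872, 1.06 and 1.498 TPM and Adam1a 0.722, 0.675, 0.544 and 0.945 TPM, neither with a call against 1 TPM. Adam1a shares 771 exon bases on the same strand with Gm42878, so its counts are uncertain. Adam3 and Adam21 lay below 1 TPM, with 7, 2, 11 and 2 counts and 9, 1, 4 and 2 counts. No gene of this group had a call in replicate 2.

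Counts of Adam2, the fertilin beta gene, were 0, 6, 0 and 0, all of them in replicate 2, and the gene was too low to be tested. Adam1b had 0, 1, 4 and 1, Adam6b 0, 0, 0 and 2, and Adam32 0, 1, 0 and 0. The silent ones were Adam5, Adam6a, Adam7, Adam18, Adam20, Adam24, Adam25, Adam26a, Adam26b, Adam29, Adam30, Adam34 and Adam39. Adam6a with Adam6b and Adam26a with Adam26b are near copies of each other, so how reads were shared out between them is not certain.

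The ADAMTS genes were led by Adamts10, a protease linked to fibrillin microfibrils. Adamts10 had 14.6, 13.6, 13.8 and 14.95 TPM and a log2 change in replicate 2 of −0.03 ± 0.10, with no call. Adamts6, its close relative, had 10.3, 7.10, 9.75 and 10.8 TPM. It was lowest in replicate 2 (−0.48 ± 0.12, edgeR adjusted p = 0.00663). Adamts3, a procollagen N-proteinase that also acts in VEGF-C maturation, had 7.51, 3.62, 8.12 and 7.40 TPM. Replicate 2 lay 2.03-fold below the others, at a log2 change of −1.02 ± 0.14 (edgeR adjusted p = 1.31e-05). These 3 genes made up 81.1% to 84.4% of the ADAMTS sum in each library.

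Adamts20 was the third ADAMTS gene with a call in replicate 2. This proteoglycanase, known from pigment cell development, had 98, 28, 96 and 98 counts, and fell in replicate 2 by 1.85 ± 0.33 on the log2 scale (edgeR adjusted p = 0.000247). Its level of 1.1, 0.272, 1.01 and 0.973 TPM had no call against 1 TPM. Adamts4, an aggrecanase, had 3.74, 2.16, 2.79 and 2.90 TPM, and Adamts14, another procollagen N-proteinase, 2.43, 1.78, 2.23 and 1.94 TPM. Neither had a call in replicate 2 (−0.48 ± 0.22 and −0.24 ± 0.23). Adamts1 and Adamts7 lay below 1 TPM, with 7 to 13 and 1 to 5 counts.

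Of the other 11 ADAMTS genes 7 had fewer than 10 counts: Adamts2, Adamts8, Adamts9, Adamts12, Adamts15, Adamts16 and Adamts17, none with over 4 in a library. No count was seen for the aggrecanase Adamts5, for Adamts13, the von Willebrand factor protease, or for Adamts18 and Adamts19.

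Among the MMPs the stromelysin Mmp10 and the matrilysin Mmp7 were the highest. Mmp10 (ENSMUSG00000047562.3, chromosome 9, bases 7502352 to 7510240), which cleaves proteoglycans and activates other MMPs, had 21.9, 9.28, 22.1 and 22.9 TPM. It was low in replicate 2, with a log2 change of −1.20 ± 0.15 (edgeR adjusted p = 2.83e-06). Mmp7 (ENSMUSG00000018623.9, chromosome 9, bases 7692090 to 7699585), a small epithelial protease that activates defensins in the mouse gut, had 8.04, 0.0818, 13.4 and 13.1 TPM. Its counts were 85, 1, 150 and 157, and replicate 1 also lay below replicates 3 and 4. Per total count the other libraries were 138 times higher than replicate 2, with a 95% counting interval of 24.7 to 5480.

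Mmp10 and Mmp7 together gave 77.9%, 46.9%, 79.4% and 81.2% of the MMP sum. That sum was 38.4, 19.96, 44.6 and 44.3 TPM, lowest in replicate 2. The ratio of the TIMP sum to the MMP sum was 14.3, 5.3, 11 and 10.8. The ratio of the ADAM sum to the MMP sum was 10, 18.3, 8.26 and 8.32. Both ratios had replicate 2 outside the range of the other libraries.

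Mmp20 (ENSMUSG00000018620.3, chromosome 9, bases 7628231 to 7674979), the enamel protease enamelysin, was called lower with Mmp7, its neighbour. It had 33, 2, 22 and 23 counts, 13.8 times higher per total count in the other libraries (95% counting interval 3.69 to 116). The fitted log2 change was −3.69 ± 0.85 (edgeR adjusted p = 0.00284). Its level of 1.01, 0.0531, 0.637 and 0.625 TPM had no call against 1 TPM.

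Of the membrane-type MMPs, Mmp15 moved the other way. Mmp15, a collagenolytic membrane protease, had 1.53, 4.11, 1.90 and 1.16 TPM and was highest in replicate 2 (log2 change 1.49 ± 0.23, edgeR adjusted p = 4.67e-05). Mmp14, the main activator of pro-MMP2, had 1.83, 1.44, 1.505 and 1.56 TPM with no call in replicate 2 (−0.12 ± 0.30). Mmp17, which is held in the membrane by a lipid anchor, lay at 1.25, 1.06, 0.906 and 0.796 TPM. Mmp24 had 0, 3, 7 and 0 counts, Mmp25 0, 2, 0 and 0, and Mmp16 none.

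The gelatinases, often studied in migrating leukocytes, were nearly absent. Mmp9 had 0, 3, 1 and 2 counts and Mmp2 0, 5, 1 and 0. Of the collagenases Mmp13 had 3, 9, 12 and 19 counts, Mmp1b 0, 1, 0 and 0, and the neutrophil collagenase Mmp8 none. Mmp12, the macrophage elastase, had 6, 2, 5 and 3 counts. The stromelysin Mmp3 had none, while Mmp11, which is activated inside the cell by furin, stood at 0.691, 1.26, 1.096 and 0.836 TPM. Mmp11 shares 155 exon bases on the opposite strand with Chchd10, a gene of 506, 905, 476 and 565 counts. Counting was by strand, so the counts of Mmp11 are uncertain only as far as reads were given the wrong strand. How often that happened was not examined.

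Of the rest, Mmp23 had 1.38, 1.01, 1.75 and 2.10 TPM and lay above 1 TPM. It lost that call without replicate 3 or 4 (log2 level 0.58 and 0.46). Mmp28 and Mmp19 lay below 1 TPM, with 7 to 27 and 5 to 15 counts. Mmp19 shares 22.3% of its exon length on the opposite strand with Tmem198b, which had 403 to 535 counts. Mmp24 shares 13.6% with BC029722 (1102 to 1395 counts) and Adamts7 1.94% with Tbc1d2b (732 to 1463 counts). As for Mmp11, the few counts of these members are uncertain as far as reads were given the wrong strand. In all, 14 tested members share exon bases with a gene on the opposite strand. Mmp27 had 1 count in all and Mmp21 none.

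In order of mean TPM, the 20 genes of at least 1 TPM ran from Timp1 over Adam19, Adam10, Adam17, Adam15, Adam8, Adam9, Mmp10, Adamts10, Adamts6, Mmp7, Adamts3, Timp2, Adamts4, Mmp15, Adamts14, Mmp14, Mmp23 and Adam4 to Mmp17. Of the 19 neighbouring pairs in that order 4 had ranges over the libraries that did not overlap. They were Adam10 with Adam17, Adam17 with Adam15, Adamts10 with Adamts6 and Timp2 with Adamts4. Such ranges ignore that both genes of a pair were measured in the same libraries. Compared within libraries, the order also held in all 4 for Timp1 over Adam19, Adam19 over Adam10 and Adam9 over Mmp10. It held too for Adamts14 over Mmp14 and Mmp23 over Adam4. Adam8 and Adam9 differed by −0.08 ± 1.04 in log2 TPM (mean ± SD, n = 4). Mmp10 with Adamts10 and Mmp14 with Mmp23 were among the other pairs that differed by less than 1 SD.

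In replicate 2, 12 of the 38 tested genes had a call, 3 higher (Adam8, Mmp15 and Adam15) and 9 lower (Mmp7, Mmp20, Timp1, Adamts20, Mmp10, Adamts3, Adamts6, Adam19 and Adam10). Among all genes tested 11.7% were higher and 10.9% lower. The members' shares were 7.89% higher and 23.7% lower. The median log2 change was −0.35 over the tested members and −0.01 over all genes tested. DESeq2 also called 3 members higher and 9 lower. The comparison sets 1 library against 3, not 2 conditions, and takes the spread of the lone library from the rest.

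**Figure D3:**
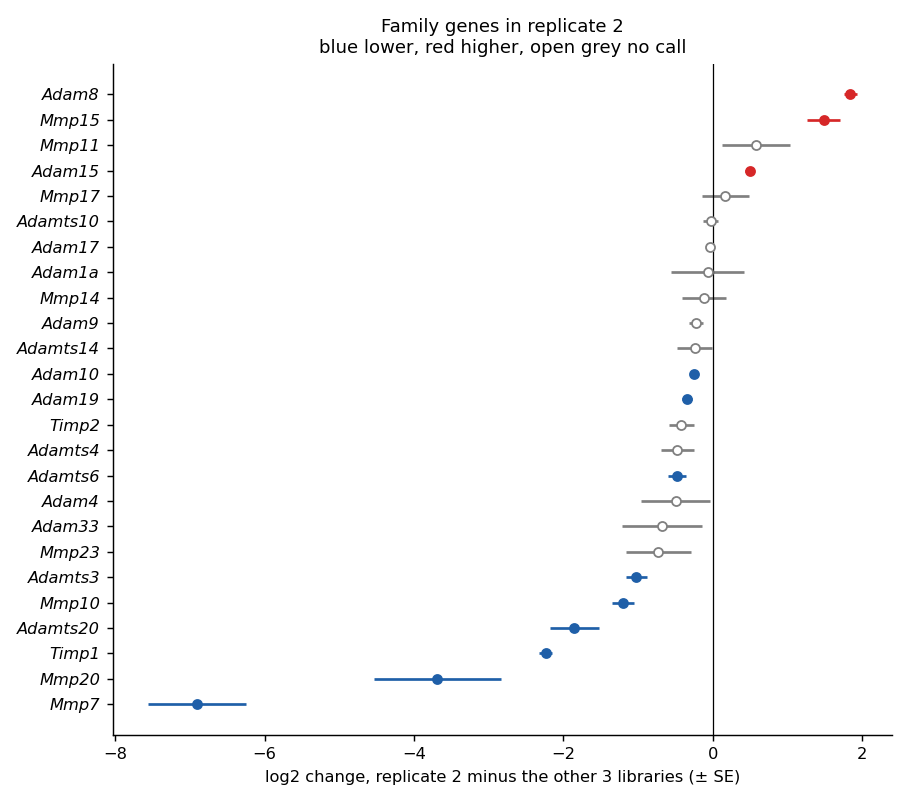
Log2 change in replicate 2 against the other 3 libraries, with its SE, for 25 genes: those with at least 100 summed counts and Mmp20. Filled blue points were called lower, filled red points higher, and open points had no call; Mmp7 at −6.91 and Adam8 at 1.84 are the ends of the range.

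No member had a call in replicate 1, 3 or 4, where edgeR called 0% of all genes. In these 3 comparisons 166, 257 and 128 of the genes had an unadjusted p under 0.05, none of them a member, and DESeq2 called 2, 15 and 3 genes, again none of them a member. The median size of the members' log2 change was 0.54 in replicate 2 and 0.52 in replicate 1, 0.27 in replicate 3 and 0.29 in replicate 4. That median is over tested genes of which 14 had fewer than 100 summed counts, so calls and sizes are given together for each gene.

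Of the 22 MMP genes 9 lie in 1 stretch of 427 kb on chromosome 9, in the order Mmp13, Mmp12, Mmp1b, Mmp3, Mmp10, Mmp8, Mmp27, Mmp20 and Mmp7. The cluster was looked at after its values were seen. It holds the 3 MMP genes that were called lower in replicate 2. Mmp20 and Mmp7 are neighbours, 17.1 kb apart, while Mmp8 with no count and Mmp27 with 1 lie between Mmp10 and Mmp20. Mmp13 at −0.36 ± 0.89 and Mmp12 at −1.24 ± 1.38 had no call, from 43 and 16 summed counts. An antisense gene, AV064505, overlaps 123 exon bases of Mmp7 and had 2, 0, 4 and 3 counts.

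Beyond the cluster the protein-coding genes on both sides, the only ones described here, were expressed in every library. Dcun1d5, on the Mmp13 side, had 4131, 4733, 4371 and 4207 counts and no call (0.10 ± 0.06). Tmem123, next to Mmp7, had 4801, 4983, 4858 and 5135 counts and no call (−0.05 ± 0.05). Birc2, the next gene, had a change of 0.10 ± 0.06 with no call, and Birc3, an inhibitor of apoptosis, was lower at −0.30 ± 0.05. Further out, Yap1 (0.48 ± 0.15) and Cep126 (1.39 ± 0.27) were called higher. The protein-coding genes that border the cluster on either side were thus not called in replicate 2.

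**Figure D4:**
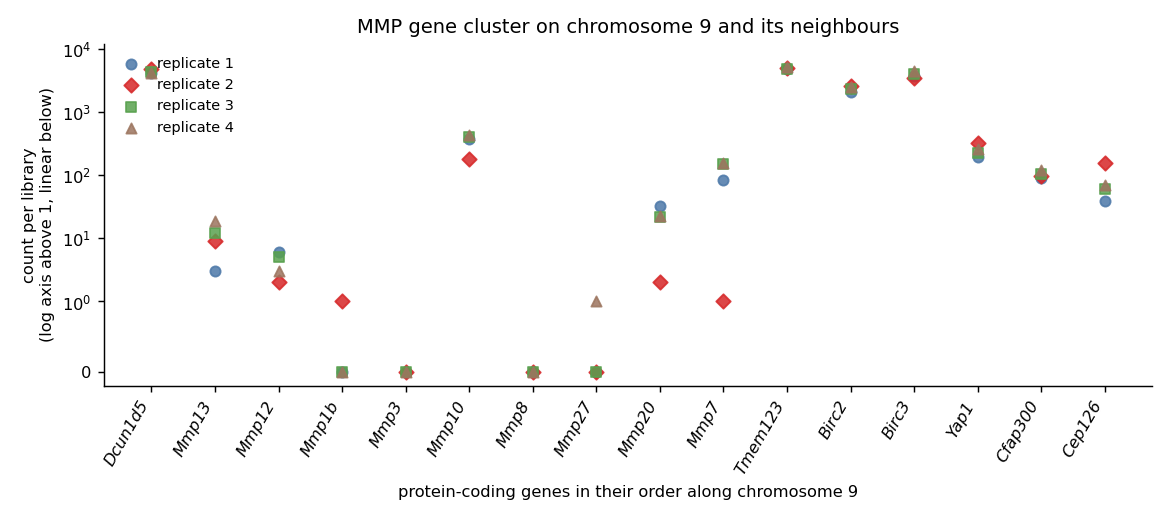
Counts in each library (log axis above 1, linear below) of the protein-coding genes along the MMP cluster on chromosome 9 and its flanks, drawn in genome order without distances. Mmp10, Mmp20 and Mmp7 lie lower in replicate 2, Mmp3 and Mmp8 are at 0 in all 4 libraries, and Dcun1d5 and Tmem123 lie between 4131 and 5135.

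Promoter sequences were compared because 3 cluster genes were low together while Mmp3 and Mmp8 between or beside them had no count. RefSeq start sites on GRCm38.p6 (the mm10 assembly) were listed for 48 of the 78 members and for all 9 cluster genes. In the 250 bases before the start, TGANTCA, the site bound by AP-1 factors such as the JUN and FOS proteins and read the same on both strands, was found in 6.75% of all 32851 promoters. It was found for 7 of the 9 cluster genes (7 of 11 promoters) and for 4 of the other 39 members (4 of 42 promoters). Cluster genes belong to 1 gene family, so their matches need not be independent. TATAAA, the TATA box, searched on both strands, was in 12.4% of all promoters and for 6 of the 9 cluster genes (6 of 11 promoters). The last 100 bases before the start are printed 5′ to 3′ for 5 of them, with the AP-1 and TATA letters in capitals; the first 3 were low in replicate 2, Mmp13 had few counts and Mmp3 had none.
Mmp7, chr9:7691990-7692089, plus strand: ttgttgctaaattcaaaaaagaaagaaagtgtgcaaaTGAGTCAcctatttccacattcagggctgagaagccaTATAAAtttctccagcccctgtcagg
Mmp10, chr9:7502242-7502341, plus strand: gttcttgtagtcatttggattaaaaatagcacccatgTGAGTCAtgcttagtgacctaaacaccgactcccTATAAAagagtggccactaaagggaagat
Mmp20, chr9:7628131-7628230, plus strand: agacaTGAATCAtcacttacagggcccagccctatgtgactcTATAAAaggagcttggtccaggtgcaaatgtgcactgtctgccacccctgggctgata
Mmp13, chr9:7272414-7272513, plus strand: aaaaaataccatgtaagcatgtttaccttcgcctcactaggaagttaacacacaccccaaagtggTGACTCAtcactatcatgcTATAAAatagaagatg
Mmp3, chr9:7445722-7445821, plus strand: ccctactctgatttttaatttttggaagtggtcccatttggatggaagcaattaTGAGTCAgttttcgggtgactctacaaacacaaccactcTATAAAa

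The AP-1 letters began 63 bases before the start in both Mmp7 and Mmp10, 95 before it in Mmp20, 35 in Mmp13 and 46 in Mmp3. The printed TATA letters began 26 bases before the start in Mmp7, 29 in Mmp10, 58 in Mmp20, 16 in Mmp13 and 7 in Mmp3. In all of these genes the bases next to the listed start lie in a GENCODE transcript, so where transcription begins is not certain. The Mmp7 sequence belongs to the first of its 2 listed starts, and the second held no match. Mmp1b and the second of 2 listed starts of Mmp12 also held a match, and Mmp8 and Mmp27 did not. The same pair of motifs stood before Mmp10, with 1396 summed counts, and before Mmp3, with none. Of the 12 members with a call in replicate 2, 11 had a listed promoter: AP-1 letters were found for 4 of the 8 called lower (Mmp7, Mmp10, Mmp20 and 1 of 3 listed starts of Adam19) and for 0 of the 3 called higher. They were also found for 2 of the 15 members with no call and for 5 of the 22 that were not tested. Of the 4 genes called lower with a match, 3 lie in the cluster, where Mmp13 and Mmp12 with no call and untested Mmp3 and Mmp1b hold one too. TTCNNNGAA, a STAT site that reads the same on both strands, was found for none of the 9 and in 7.02%, and CCGGAAG, an ETS site searched on both strands, for none of the 9 and in 6.91%. A match is a stretch of letters, and neither binding nor a part in the counts or in the changes of replicate 2 was tested.

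A list of factors that can act on MMP promoters held AP-1 and ETS factors, Stat3, the NF-kB gene Rela and Runx2. Transcripts of all of them were present. In that list 14 of 14 genes lay above 1 TPM, 2 were higher in replicate 2 and 5 lower, with a median log2 change of −0.22. For this and the following lists, the shares of all genes tested were 70.6% above 1 TPM, 11.7% higher in replicate 2 and 10.9% lower. Junb, a JUN family member, had 1300, 1348, 1245 and 1303 TPM and was called higher in replicate 2 by a small log2 change of 0.13 ± 0.04, as was Ets2, an ETS factor, at 0.44 ± 0.09. Jund had 966 ± 59.8 and Stat3 256 ± 8.78 TPM. Fosl2, a FOS family member, was lower in replicate 2 at −0.34 ± 0.06, as were Etv4 at −0.83 ± 0.13, Jun at −0.39 ± 0.11, Runx2 at −0.27 ± 0.08 and Ets1 at −0.20 ± 0.05.

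Genes whose products help ADAM10 and ADAM17 mature varied widely in level. In a list of 13 sheddase partners and convertases 8 of the 11 tested lay above 1 TPM, a share near the 70.6% of all genes tested, 1 was higher in replicate 2 and 4 lower (median log2 change −0.11). Furin, which removes the prodomain of ADAMs and membrane MMPs, stood at 393, 370, 362 and 365 TPM, with no call (0.05 ± 0.05). Frmd8, which stabilises the iRhom and ADAM17 complex, had 73.8, 91.0, 65.6 and 69.1 TPM and was higher in replicate 2 (0.45 ± 0.06). The iRhom gene Rhbdf2, the ADAM17 escort in leukocytes, had 35.5 ± 2.53 TPM, and Rhbdf1 between 2.48 and 2.77 TPM, neither with a call.

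Of the tetraspanins that carry ADAM10 to the surface, Tspan14 was highest at 37.8 ± 3.02 TPM with no call. Tspan5 was lower in replicate 2, with 18.3, 11.8, 19.3 and 20.3 TPM (−0.65 ± 0.09). Pcsk6, a convertase like furin, had 2.08, 0.337, 1.65 and 1.77 TPM (−2.38 ± 0.36), and Pcsk7 had 42.3 ± 4.56 TPM and was lower (−0.21 ± 0.07). Tspan15 was also called lower, from 15, 0, 7 and 9 counts, while Tspan10 and Pcsk5 had at most 3 counts in a library.

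Among 25 surface proteins known to be shed, 21 lay above 1 TPM, 8 were higher in replicate 2 and 4 lower, with a median log2 change of 0.07. The highest were Cd44 at 552 ± 5.08, Tnfsf11, the RANK ligand, at 390 ± 40.4 and Cd40lg at 386 ± 7.21 TPM. Il1r2, the decoy receptor for interleukin 1, had the largest change of the 12 genes of this list with a call, at 63.4, 340, 75.0 and 76.9 TPM (2.30 ± 0.08). Tnf, the first known ADAM17 substrate, had 208 ± 11.8 TPM and was higher by a log2 change of 0.15 ± 0.05.

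**Figure D5:**
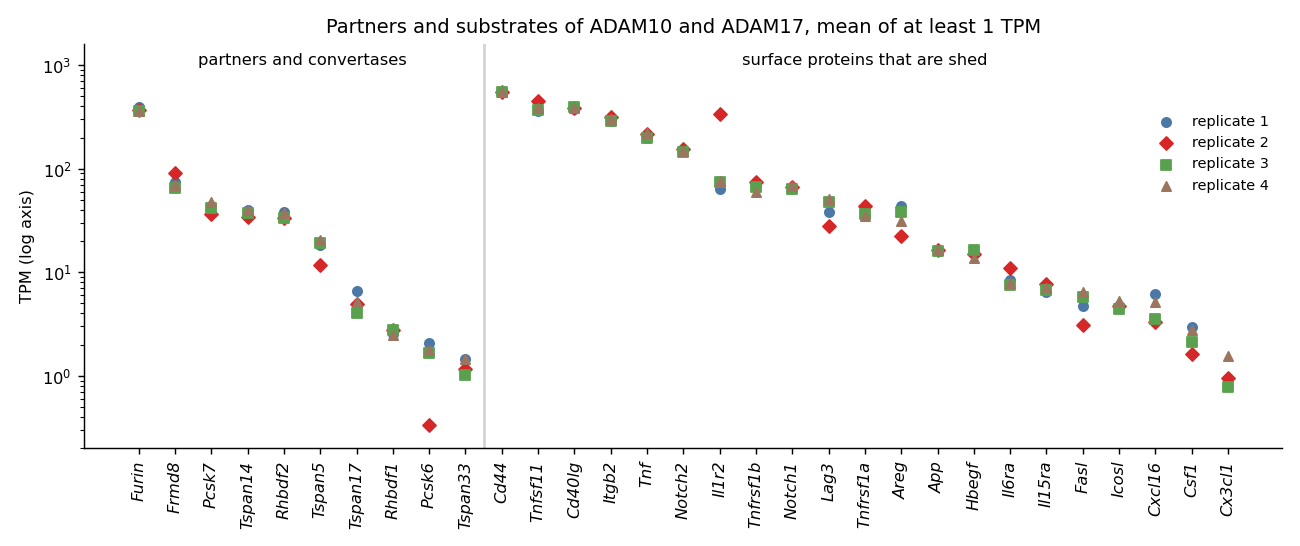
TPM (log axis) in the 4 libraries of the sheddase partners and convertases (left) and of surface proteins that are shed (right), for the genes reported here with a mean of at least 1 TPM. Most symbols coincide; Il1r2 at 340 TPM and Pcsk6 at 0.337 TPM in replicate 2 lie furthest from the other libraries.

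Other proteases and regulators around the cell varied in both directions in replicate 2. In the list of the plasminogen system and pericellular regulators 10 of 13 tested genes lay above 1 TPM, 4 were higher and 2 lower (median 0.21). Bsg, which encodes basigin, an inducer of MMPs in neighbouring cells, had 1421, 1192, 1464 and 1446 TPM and was lower at −0.21 ± 0.04. Serpine2, a secreted inhibitor of serine proteases, had 77.3, 148, 75.6 and 75.5 TPM and was higher at 1.02 ± 0.05. Lrp1, the receptor that takes up MMP, ADAMTS and TIMP proteins, had 17.7, 5.69, 17.7 and 17.9 TPM and was lower at −1.58 ± 0.06, while the membrane protease gene St14 was higher at 1.1 ± 0.09. Reck, an MMP inhibitor of the cell surface, had 2.97 to 4.50 TPM and no call.

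Of the 12 cathepsins and related lysosomal proteases 9 lay above 1 TPM. Ctsz, Ctsd and Ctsb had 412 ± 12.8, 220 ± 38.5 and 189 ± 20.9 TPM. In replicate 2, 3 of these 12 were higher, such as Ctsd at 0.53 ± 0.05, and 2 lower, such as Ctsb at −0.27 ± 0.05 (median 0.02). Ctsh, with 12, 48, 12 and 21 counts, had the largest of these changes, at 1.62 ± 0.48. Matrix genes that these proteases cut were mostly low, with 7 of 17 tested genes above 1 TPM, led by Sdc4 at 55.7 ± 13.0, Lamc1 at 43.9 ± 5.90 and Sdc1 at 34.5 ± 2.32 TPM. Of them 2 were higher and 2 lower in replicate 2 (median −0.08), and the collagen gene Col3a1 had no count.

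Several of these genes are also known from other cell types, whose markers were counted beside them. In the stromal list 5 of 9 genes lay above 1 TPM and its summed level was 1080, 1570, 1010 and 997 TPM, almost all of it Lum and Thy1, the latter also a T cell gene, while Col3a1 was at 0 and Col1a2 at no more than 0.021 TPM. In replicate 2, 3 stromal genes were called higher (Lum, Thy1 and Dcn, at 0.66 ± 0.06, 0.73 ± 0.09 and 1.30 ± 0.13 in log2 change) and 1, Pdgfrb, lower (−1.26 ± 0.27). The macrophage, dendritic and neutrophil list summed to 21 to 24.3 TPM, led by Cd68, Adgre1 and Cd14, with Lyz2, S100a8, S100a9 and Elane at 0. Its 1 gene with a call in replicate 2, Adgre1, was lower (−0.54 ± 0.15). The 8 epithelial markers summed to 1.67 to 2.15 TPM, with Krt8, Krt14 and Cdh1 at 0, and Epcam, Cldn4 and Krt18 leading. The 5 B cell markers, led by Cd79b, Cd79a and Pax5, summed to 1.75 to 2.16 TPM with Ms4a1 at 0 in 3 libraries, and the 5 endothelial markers to 16.7 to 21.9 TPM, mostly Pecam1, which T cells also express, with Cdh5 at 0. Of the endothelial markers Pecam1 (0.29 ± 0.09) and Tek (2.28 ± 0.60, from 6, 39, 5 and 12 counts) were called higher in replicate 2, and no epithelial or B cell marker had a call. Replicate 2 had the highest sum of the stromal, macrophage, B cell and endothelial lists. The lead was small for the macrophage list (24.3 against 23.3 TPM in replicate 4) and the B cell list (2.16 against 2.11 TPM in replicate 3). What part such cells had in the values of the proteases was not tested.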

How the data were processed

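The authors deposited raw counts, 1 table per library, made with featureCounts 1.4.6-p4 on reverse-stranded read pairs against GENCODE M13, per the file headers; the labels give mm10 as build. Which aligner version was run is not given in the sources used here. Gene length, also deposited, is the summed exon bases. Symbols and types came from GENCODE M21 (50376 of 50600 identifiers matched). TPM was computed as count over length, scaled per library. Scripts were tested on simulated data. Genes with at least 10 summed counts were tested with edgeR 4.0.16 (quasi-likelihood, TMM, robust prior) in 2 ways: the level against 1 TPM in an intercept-only fit with length and library scale as offset, and each replicate against the other 3. P-values were adjusted by Benjamini-Hochberg over all genes, threshold 0.05. SE was obtained by dividing the size of the change by the root of its F statistic. Alternatives were DESeq2 1.42.0, its size factors, other filters, a rescaled TPM, limma 3.58.1 on log2(TPM + 0.1), computed from the deposited counts, and leaving out each replicate. Members and lists were chosen with earlier results of these data known. Every member of at least 10 summed counts is named, and others by role; of each list, the highest 3 by mean TPM and those with a call in replicate 2 and an absolute log2 change of at least 1. Other list genes were chosen after their values were seen. Protein sequences were not used here. Some genes of the lists are counted in them but not reported here by name, and 1 of the 5 promoter motifs searched is not reported here.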

Additional observations from a re-analysis of the deposited data

Results flagged for a closer look

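The values examined for 1 library far from the other 3 numbered 42 (38 tested genes and 4 family sums). Of these 7 stood out, all in replicate 2. With libraries alike, chance would mark about 1 in 20. Replicate 2 differed in many genes beyond this family, and the share of all genes that this measure marks was not computed. The TIMP sum is nearly all Timp1, so these are not separate values. The measure was the gap to the nearest library over the whole range, set against Dixon's 95% value for 4 samples. Replicate 2 was low for Timp1 at 102 TPM, for the TIMP sum at 106 TPM, for Mmp10 at 9.28 TPM, for Adamts3 at 3.62 TPM, for Adamts20 at 0.272 TPM and for Adam17 at 64.5 TPM. It was high for Adam8 at 55.3 TPM. Adam17 stood out by this measure because its other 3 libraries lay within 68.8 to 69.5 TPM, while its change in replicate 2 had no call.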

How the results depend on the processing

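The 3 members called higher in replicate 2 numbered 3 under each alternative run on that comparison, and the 9 lower ones ranged from 8, where Mmp20 fell below a filter of 100 counts, to 10. Members below 1 TPM went from 14 to 30 with no filter on counts and to 1 with a filter of 100 summed counts, and all genes below 1 TPM from 2851 to 8215 and 290, as more or fewer low genes were tested. In replicates 1, 3 and 4, where edgeR called no gene, DESeq2 called 2, 15 and 3 genes, and no filter gave 17 in replicate 3. Leaving out 1 library gave 0 to 68, 0 to 108 and 0 to 9 genes, the highest without replicate 2; no member was among them. The ADAM sum of 371.7 TPM became 386.2 when mitochondrial and small RNA genes were left out of the scale. With limma Mmp7 and Mmp15 lost their call above 1 TPM (1.87 and 0.89) and Adam1a gained one below it (−0.44). Depth limits the members of few counts: 40 of 78 were not tested. No paired analysis was possible because the samples form 1 group.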
